A study of Caenorhabditis elegans with 15 samples.

Results

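Transcript levels of 10 genes that are tied by name or by earlier results to the transcription factor DAF-16 were followed in whole Caenorhabditis elegans: dct-7, dct-8, dct-17, dod-3, dod-17, dod-19, dod-21, dod-22, dod-24 and B0024.4. They were taken by name from the 42048 genes of the deposited tables, and they had been chosen by measured values: their levels and differences between groups in these same libraries. Their values are therefore given as a description, without a test, and the counts of them that passed a threshold support nothing by themselves. All 10 names were found, and all 10 passed the filter on low values (a mean of at least 1 RPKM, a read count scaled by gene length and library size) in each comparison. A further 18 genes named dct or dod are in the tables and were not among those picked.

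RNA came from whole bodies at adult day 1, grown at 20 °C on bacteria, in 5 groups of 3 libraries. Of these, 4 groups were strain SHU47, labelled glp-1, and were fed HT115(DE3) bacteria with L4440 vectors against hlh-30, atg-2, atg-18 or the control target luc. The series text calls these worms germline-less and the knockdown neuronal. The last group was TU3401, fed luc; TU3401 is a strain in which feeding RNAi acts mainly in neurons, because a sid-1 mutant was given back the double-stranded RNA channel SID-1 in those cells. All groups thus ate double-stranded RNA, and whole-body RNA mixes the neurons with every other tissue. Whether the 3 libraries of each group were grown as separate cultures is not stated, so the p-values below measure only the spread between libraries, which may be technical.

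As background, DAF-16 is a forkhead transcription factor that insulin-like signalling keeps out of the nucleus. When that signalling falls, or when the germline is removed as in glp-1 worms, DAF-16 enters nuclei, above all in the intestine, and is needed for the long life that follows. The dod genes (downstream of DAF-16) were named from profiling of insulin pathway mutants: dod-3 belongs to the class that DAF-16 raises, and dod-17, dod-19, dod-21, dod-22 and dod-24 to the class that is higher when DAF-16 is lost. The dct genes (DAF-16/FOXO controlled, germline tumour affecting) came from a search for DAF-16 targets that modify germline tumours. Several of the second dod class, and dct-17, encode proteins with CUB-like domains that the intestine makes in response to infection. HLH-30 is the worm counterpart of TFEB, the transcription factor of autophagy and lysosome genes, while ATG-2 and ATG-18 act in building the autophagosome membrane.

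Depth recovered from the RPKM steps was 17496624 to 25599148 reads per library. The RNAi targets did not check the labels. The transcript of hlh-30 stood at 126, 293 and 328 RPKM in the libraries labelled hlh-30 RNAi, against 54.6, 44.5 and 50.9 RPKM in glp-1 luc. That of atg-2 averaged 40.2 ± 2.66 RPKM in libraries labelled atg-2 RNAi and 30.1 ± 4.19 RPKM in glp-1 luc (SD, n = 3 each). For atg-18 the values were 49.1, 81.3 and 116 RPKM in libraries labelled atg-18 RNAi, around the 72.5 ± 5.23 RPKM of glp-1 luc. None of the targets was lower in every library of its own RNAi, so each group is named here by its label only, and every direction below is between libraries as labelled. The 28 germline and oocyte markers summed to 24.1 to 136 RPKM in glp-1 luc and to 13029 to 13405 RPKM in TU3401 luc. Library 1 of hlh-30 RNAi (219 RPKM), atg-2 RNAi (327 RPKM) and glp-1 luc (136 RPKM) held more of this RNA than any other glp-1 library (23.7 to 28.6 RPKM). Of 16 intestine markers 15 are in the tables, summing to 25664 to 28769 RPKM in the glp-1 groups and 8600 to 9689 RPKM in TU3401 luc. In RNA of whole worms, fewer cells of a type and less RNA per cell cannot be told apart.

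The 10 genes lie on chromosomes IV and V of the WBcel235 annotation, which was used for names and gene order alone. On chromosome IV are dct-7 (sequence name F15E6.8), dct-8 (F56D6.10), dod-17 (K10D11.1), dod-21 (C32H11.10), dod-22 (F55G11.5) and dod-24 (C32H11.12). Chromosome V holds dct-17 (F35E12.7), dod-3 (C24B9.9), dod-19 (ZK6.10) and B0024.4. The shortest lengths that fit the RPKM steps were 210 bases for dct-7 and for dct-8 and 321 bases for dod-3, against 2220 bases for dct-17 and 2172 bases for dod-21. Because dct-17, dod-17, dod-21, dod-22 and dod-24 belong to a large family of related genes, reads shared between relatives could be split in ways that could not be checked, and their separate values carry that uncertainty.

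**Figure D1:**
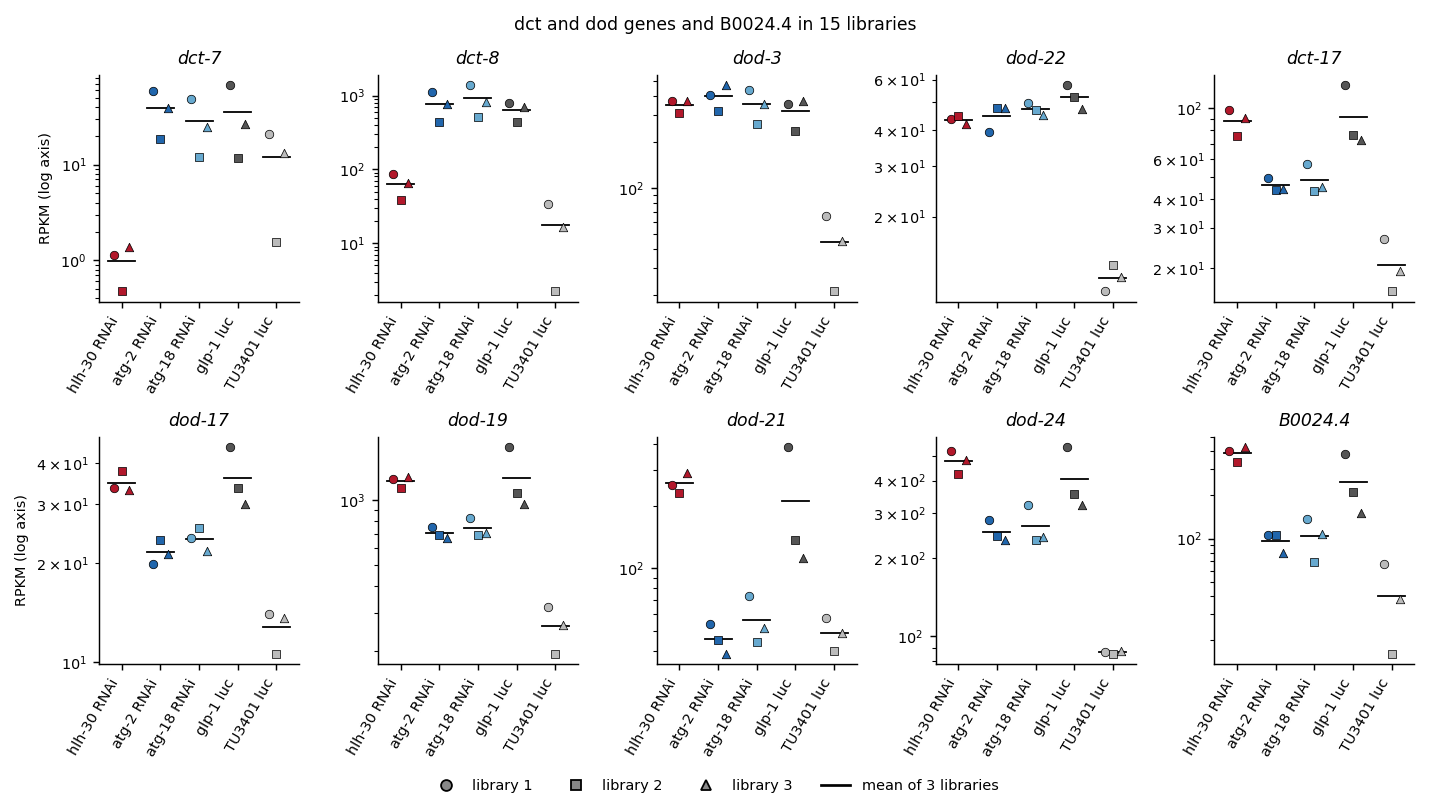
RPKM of each gene (log axis) in the 15 libraries; symbols mark the library number, bars the mean of 3 libraries, and groups are named by label. The hlh-30 RNAi libraries sit lowest for dct-7 (0.473 to 1.36 RPKM) and far below the other glp-1 libraries for dct-8, the atg-2 and atg-18 RNAi libraries sit below luc for the last 6 genes, and TU3401 luc has the lowest mean for 8 of the 10.

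Within the glp-1 worms the 10 genes fell into 3 patterns: dct-7 and dct-8 were low with hlh-30 RNAi, another 6 were low with atg-2 and atg-18 RNAi, and dod-3 and dod-22 differed little. The first pattern had the largest differences. dct-7 read 1.13, 0.473 and 1.36 RPKM in libraries labelled hlh-30 RNAi, against 68.4, 11.7 and 26.95 RPKM in glp-1 luc. These are 6, 2 and 5 reads against 290, 46 and 132 reads at the smallest scale the RPKM steps allow. All 3 hlh-30 RNAi libraries were below the lowest luc library, which itself was 5.85-fold under the highest. The mean was 0.987 ± 0.460 RPKM with hlh-30 RNAi and 35.7 ± 29.3 RPKM with luc (SD, n = 3 each), 36.1-fold lower, and the difference on the log2(RPKM + 1) scale, used for all differences here, was -3.90 ± 0.56 (SE). Without luc library 1 this difference of dct-7 was -3.27, and without luc library 2 it was -4.50. This scale understates changes of low genes: with a pseudocount of 0.1 the contrast of hlh-30 RNAi with atg-2 RNAi was -5.12 in place of -4.21.

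dct-8, a gene with the same shortest fitting length, was expressed more highly. Its values were 87.7, 37.8 and 64.8 RPKM in libraries labelled hlh-30 RNAi, against 781, 435 and 697 RPKM in glp-1 luc. The groups were far apart: 63.4 ± 24.9 RPKM and 638 ± 180.2 RPKM (SD, n = 3 each), 10.1-fold lower, a difference of -3.35 ± 0.33 (SE). Compared by library number, the 3 differences of dct-8 lay close together at -3.14, -3.49 and -3.41, and those of dct-7 at -5.03, -3.11 and -3.57. In TU3401 luc dct-8 read 33.4, 2.22 and 16.6 RPKM and dct-7 21.1, 1.56 and 13.2 RPKM. How far these lie under glp-1 luc depends on the scaling between strains. The difference was 5.63 for dct-8 and 1.65 for dct-7, and 4.16 and 0.24 on the scale of neuronal and muscle genes.

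Neither gene showed this with the autophagy genes as targets. dct-8 read 1122, 438 and 773 RPKM with atg-2 RNAi and 1395, 517 and 822 RPKM with atg-18 RNAi, ranges that overlap luc. dct-7 read 58.7, 18.8 and 38.9 RPKM with atg-2 RNAi and 48.96, 12.03 and 24.5 RPKM with atg-18 RNAi, again across the luc range. In the comparison of hlh-30 RNAi with luc, limma called 1 of the 10 genes lower (dct-8) at a Benjamini-Hochberg adjusted p under 0.05, where it called 0.08% of the 12494 genes tested, and 3 of the 10 (dct-7, dct-8 and dod-22) were lower without overlap, where 8.24% of genes were. The call of dct-8 was lost in 5 of the 6 fits that left out 1 library (all but that without luc library 2, which called 2 of the 10 lower), with no filter and without limma's trend. Of the 10 genes 0 were called higher; over all genes 11 were called, and 1187 had an unadjusted p under 0.05. The authors' deposited table gives dct-7 a log2 fold change of -5.12 and dct-8 one of -3.31. It lists both under a false discovery rate of 0.05, as it does 70 of its 42048 genes (0.166%) in that direction. That share is over all genes of the table, of which 24620 were above 0 in any library, where limma's is over genes that passed the filter. The median difference of the 10 genes was -0.01, as was that of all genes tested.

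dct-17, dod-17, dod-19, dod-21, dod-24 and B0024.4 were lower in every atg-2 RNAi and every atg-18 RNAi library than in any luc library. dod-21, which encodes a CUB-like protein, differed most. It read 53.6, 44.8 and 38.7 RPKM with atg-2 RNAi and 73.8, 44.1 and 51.5 RPKM with atg-18 RNAi, against 386, 137 and 113 RPKM with luc. TU3401 luc, in a strain whose level against glp-1 worms depends on the scaling (1.89 for dod-21 in glp-1 luc against TU3401 luc, and 0.36 on the scale of neuronal and muscle genes), read 57.6, 39.9 and 48.97 RPKM. The differences from luc were -1.98 ± 0.44 with atg-2 RNAi and -1.70 ± 0.45 with atg-18 RNAi (SE), 4.64-fold and 3.76-fold by the means.

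B0024.4 came next. It read 106, 106 and 79.0 RPKM with atg-2 RNAi and 137, 68.4 and 107 RPKM with atg-18 RNAi, against 381, 211 and 150.2 RPKM with luc, differences of -1.25 ± 0.32 with atg-2 RNAi and -1.19 ± 0.37 with atg-18 RNAi (SE). The highest atg-18 RNAi library lay only just under the lowest luc library. dct-17 was more even within the RNAi groups, at 49.6, 43.9 and 44.5 RPKM with atg-2 RNAi and 56.7, 43.6 and 45.1 RPKM with atg-18 RNAi, against 127, 76.6 and 72.6 RPKM with luc. Its differences were -0.94 ± 0.20 with atg-2 RNAi and -0.87 ± 0.22 with atg-18 RNAi (SE).

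With atg-2 and atg-18 RNAi the mean of dct-8 was higher, but with luc dod-19 was the most abundant of the 10. It read 753, 687 and 666 RPKM with atg-2 RNAi and 832, 689 and 707 RPKM with atg-18 RNAi, against 1768, 1084 and 966 RPKM with luc (-0.81 ± 0.21 and -0.73 ± 0.22, SE). The remaining pair differed least. dod-24 averaged 253 ± 24.2 RPKM with atg-2 RNAi and 266 ± 47.4 RPKM with atg-18 RNAi, and 406 ± 117.1 RPKM with luc (SD, n = 3 each). dod-17 averaged 21.5 ± 1.80 RPKM with atg-2 RNAi and 23.6 ± 1.90 RPKM with atg-18 RNAi, against 36.1 ± 7.64 RPKM with luc (SD, n = 3 each).

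limma called 0 of the 10 genes in either comparison with luc. It called 0% of all genes lower, too, with 961 genes at an unadjusted p under 0.05 with atg-2 RNAi and 850 with atg-18 RNAi, and without its mean-variance trend it called 1 gene in each. Lower without overlap were 6 of the 10 genes with atg-2 RNAi, where 8.28% of genes were, and the same 6 with atg-18 RNAi, where 6.21% were. These 2 comparisons share their luc libraries. The authors' deposited table for atg-18 RNAi lists 5 of the 10 as lower under a false discovery rate of 0.05 (dct-17, dod-17, dod-19, dod-21 and B0024.4), as it does 36 of its 42048 unfiltered genes (0.0856%). Their log2 fold changes were -0.90, -0.59, -0.75, -1.88 and -1.23. The authors' table for atg-2 RNAi lists 0 of the 10 as lower, and 1 of its 42048 unfiltered genes (0.00238%). There dod-21 has a log2 fold change of -2.17. The median difference of the 10 genes was -0.67 with atg-2 RNAi and -0.58 with atg-18 RNAi, and that of all genes tested -0.01 in both.

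**Figure D2:**
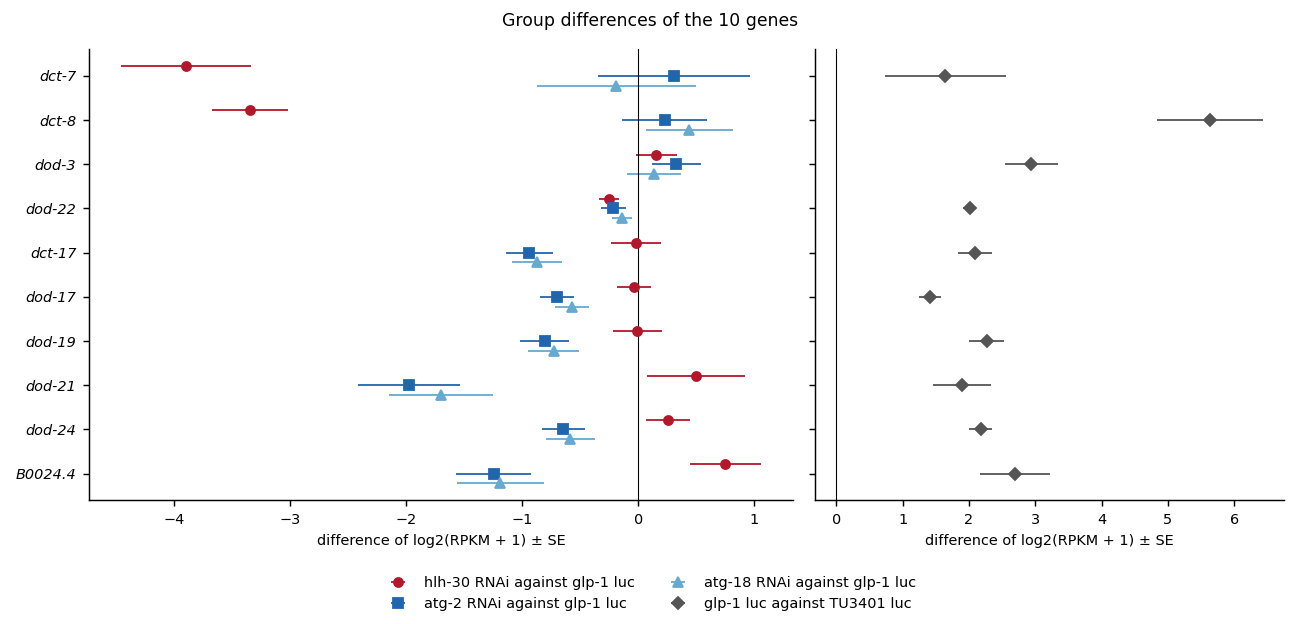
Differences of log2(RPKM + 1) between group means with their standard errors (3 libraries a group, groups named by label) for each RNAi group against glp-1 luc on the left and for glp-1 luc against TU3401 luc on the right. dct-7 and dct-8 stand at -3.90 and -3.35 with hlh-30 RNAi, the last 6 genes lie left of 0 with atg-2 and atg-18 RNAi, and all 10 lie right of 0 in glp-1 luc against TU3401 luc.

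Part of the size of these differences came from 1 luc library. Library 1 of glp-1 luc was the highest of its group for 9 of the 10 genes, and held dod-21 at 386 RPKM where the other luc libraries had 137 and 113 RPKM. It was also the luc library with germline RNA, at 136 RPKM over the marker list against 24.1 and 27.2 RPKM; the part of that RNA in these results was not tested. Without it, the difference of dod-21 was -1.44 with atg-2 RNAi and -1.16 with atg-18 RNAi, and that of B0024.4 was -0.88 and -0.82. The other 4 genes then ranged between -0.69 (dct-17) and -0.42 (dod-24) with atg-2 RNAi, and between -0.62 (dct-17) and -0.36 (dod-24) with atg-18 RNAi. By library number, the differences of dod-21 with atg-2 RNAi were -2.83, -1.59 and -1.51, and those of dod-17 with atg-18 RNAi were -0.88, -0.39 and -0.45. Their shared sign follows from the groups not overlapping and adds nothing to it.

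**Figure D3:**
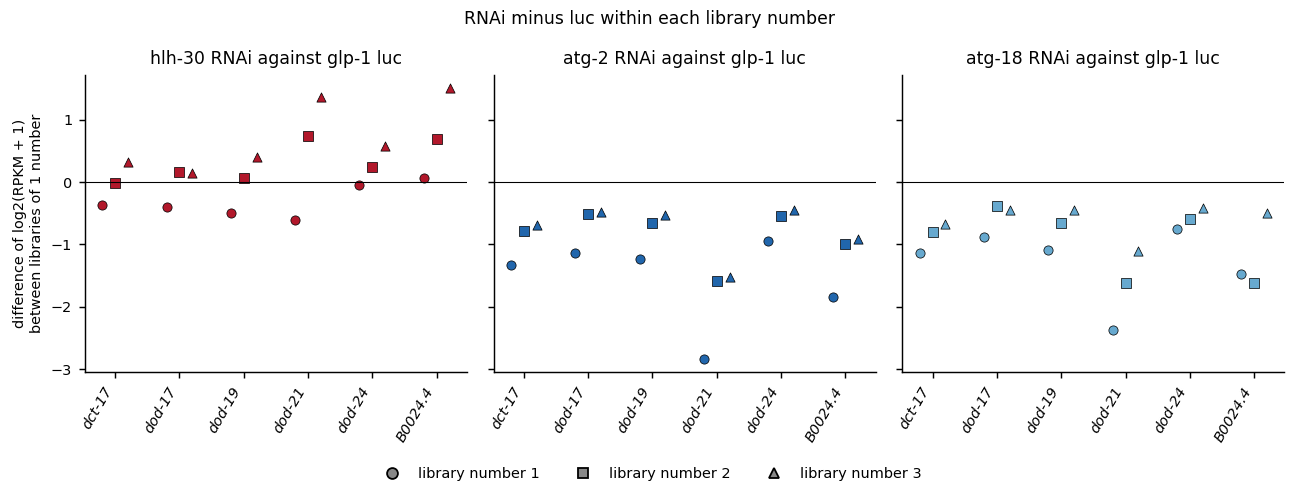
Difference of log2(RPKM + 1) between the RNAi library and the glp-1 luc library of the same number, for the 6 genes that were lower with atg-2 and atg-18 RNAi, with groups named by label. All points lie under 0 with atg-2 and atg-18 RNAi, as groups without overlap must, while with hlh-30 RNAi number 1 lies lowest for each gene and signs are mixed for 5 of the 6, B0024.4 being at or above 0.07 throughout.

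With hlh-30 RNAi the same 6 genes did not share a direction against luc. Their differences lay between -0.03 (dod-17) and 0.75 (B0024.4). B0024.4 read 400, 339 and 428 RPKM with hlh-30 RNAi against 381, 211 and 150.2 RPKM with luc, and dod-21 read 254, 231 and 291 RPKM with hlh-30 RNAi against 386, 137 and 113 RPKM with luc. For dod-21 the sign depended on the number (-0.60, 0.75 and 1.36), and without luc library 1 its difference was 1.04 in place of 0.50. Both genes were more even across the hlh-30 RNAi libraries than across the luc libraries.

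Set directly against each other within 1 fit of the 12 glp-1 libraries, the hlh-30 and atg RNAi groups differed in both sets of genes. Higher without overlap with hlh-30 RNAi than with atg-2 RNAi were dct-17, dod-17, dod-19, dod-21, dod-24 and B0024.4, where 1176 of all 12460 genes tested were. dod-21 was 5.66-fold higher (2.48 on the log2 scale) and B0024.4 4.01-fold higher (2.00). The other 4 ranged between 0.67 (dod-17) and 0.92 (dct-17). dct-7 was lower by 39.3-fold and dct-8 by 12.26-fold. limma called 5 of the 10 genes higher (dct-17, dod-17, dod-21, dod-24 and B0024.4), where it called 0.578% of the 12460 genes tested, and 2 lower (dct-7 and dct-8), where it called 0.433%. With the library number as a block, it called 6 higher and 2 lower among the 10 and 757 genes in all, in place of 126. Same-numbered libraries of hlh-30 and atg-2 RNAi had correlated deviations. The fit also held the luc libraries, whose numbers were not shown to pair with hlh-30 RNAi (a correlation of 0.069 for library 3) or atg-18 RNAi (0.0841). When 1 library was left out, the 10 genes had 0 to 2 calls higher and 1 or 2 lower. On the scale of summed neuronal and muscle genes they had 1 higher and 2 lower.

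Against atg-18 RNAi the picture was the same in direction. dod-21 was 4.58-fold and B0024.4 3.74-fold higher with hlh-30 RNAi, and dct-8 was 14.4-fold lower. The calls were 2 higher (dod-21 and B0024.4), where 0.465% of genes were, and 2 lower (dct-7 and dct-8), where 0.554% were. The library-number block gave 6 higher and 2 lower among the 10 and 506 genes in all, in place of 127. Leaving out 1 library gave 0 or 1 higher and 1 or 2 lower. Rescaling on neuronal and muscle genes left 0 of the 10 genes called higher and 1 lower, and 26 genes called in all, 15 higher and 11 lower, where the unscaled RPKM gave 58 higher and 69 lower.

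atg-2 and atg-18 RNAi did not separate for any of the 10. Between them limma called 0 of the 10 genes and 0.0161% of all genes, with 391 genes at an unadjusted p under 0.05, and 0 of the 10 were without overlap, where 8.03% of genes were. The differences of atg-2 RNAi against atg-18 RNAi ran from -0.28 for dod-21 to 0.50 for dct-7, with a median of -0.07 over the 10 genes and of -0.0037 over all genes tested. These differences were smaller than the spread of the libraries, which does not show that the levels were equal.

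dod-3 and dod-22 differed from luc by at most 0.33 on the log2 scale in each RNAi group. dod-3 averaged 349.8 ± 37.9 RPKM with hlh-30 RNAi, 398 ± 75.9 RPKM with atg-2 RNAi and 351 ± 88.2 RPKM with atg-18 RNAi, against 319 ± 74.5 RPKM with luc (SD, n = 3 each). All these ranges overlapped. dod-22 averaged 43.6 ± 1.39 RPKM with hlh-30 RNAi, 44.96 ± 4.94 RPKM with atg-2 RNAi and 47.3 ± 2.16 RPKM with atg-18 RNAi, against 52.3 ± 5.13 RPKM with luc (SD, n = 3 each). Its hlh-30 RNAi libraries (42.2 to 44.9 RPKM) lay just under the lowest luc library (47.3 RPKM), a difference of -0.25 ± 0.08 (SE).

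In glp-1 luc against TU3401 luc all 10 genes had the higher mean in glp-1 worms. dct-8 differed most, at 638 ± 180.2 RPKM and 17.4 ± 15.6 RPKM (SD, n = 3 each), 36.7-fold. That size depended on single TU3401 libraries: the log2 difference of dct-8 was 5.63, against 4.66 without TU3401 library 2 and 6.37 without TU3401 library 1. dod-3 was 7.25-fold higher and B0024.4 6.16-fold. A group of 5 genes lay close together: dod-19 (4.90-fold), dod-24 (4.68-fold), dct-17 (4.46-fold), dod-21 (4.34-fold) and dod-22 (4.27-fold). dct-7 (2.98-fold) and dod-17 (2.83-fold) differed least, and dct-7 (1.65, with 0.71 without TU3401 library 2 and 2.27 without TU3401 library 1) alone overlapped, since its lowest luc library in glp-1 worms (11.7 RPKM) was under the 2 higher TU3401 libraries.

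limma called 9 of the 10 genes higher, all but dct-7, where it called 41.4% of the 13569 genes tested, and the same 9 were higher without overlap, where 41.6% of genes were. The median difference was 2.13 over the 10 and -0.19 over all genes. The authors' deposited table lists all 10 as higher under a false discovery rate of 0.05, as it does 6701 of its 42048 unfiltered genes. There dct-7 has a log2 fold change of 1.76. The scale matters here, since RPKM are shares of a library and TU3401 worms carry a germline. Rescaled on the summed RPKM of neuronal and muscle genes, which shifted genes by a median of -1.38, the comparison had 14.9% of its 10683 called genes higher in place of 46.1%. Muscle genes make up most of that sum, at 13145 to 15891 RPKM in glp-1 luc and 4077 to 4778 RPKM in TU3401 luc. Pan-neuronal genes summed to 1102 to 1270 RPKM and 810 to 889 RPKM, so the scale mostly follows muscle. Of the 10 genes 4 were then called higher: dct-8 (4.16), dod-3 (1.41), dod-24 (0.63) and dod-22 (0.52). On that scale dod-17 was at -0.0598, dod-21 at 0.36 and B0024.4 at 1.17. Before rescaling, the intestine markers, in whose tissue several of these genes are known to be made, rose in 14 of 15 (median 1.23). Only pept-1 fell (-0.40). On the scale of neuronal and muscle genes pept-1 stood at -1.81, and the largest rises, ftn-1 and ges-1, at 3.44 and 1.42. Also before rescaling, muscle genes rose in 18 of 20 (median 1.83) and pan-neuronal genes in 15 of 19. Of 11 hypodermis markers 8 fell, dpy-7 (-4.15) and sqt-3 (-4.14) by most. The other 3 rose, the collagen genes col-140 (1.82) and col-19 (1.78) among them. Summed, the hypodermis markers were higher in glp-1 luc (8591 to 10755 RPKM) than in TU3401 luc (3151 to 3823 RPKM). In that sum col-140 alone averaged 3877 RPKM in glp-1 luc and 1103 RPKM in TU3401 luc. The part of these tissues in the result was not tested.

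Libraries that carry the same number were ordered alike for several of the genes, across strains and RNAi. dct-8 was highest in library 1 and lowest in library 2 in 5 of 5 groups. dct-7 and dod-3 were lowest in library 2 in 5 of 5 groups, and dct-17 was highest in library 1 in 5 of 5. Among 9842 genes with a mean of at least 5 RPKM, 11.04% were highest in library 1 of all 5 groups and 8.02% lowest in library 2. The labels do not explain the number. The genes also varied more than most within glp-1 luc: the log2 SD of dct-7 was 1.23 and that of dod-21 0.95, larger than in 99.7% and 99.4% of 8580 genes, where the median was 0.10. dod-22, at 0.14, lay above 65.7% of genes.

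daf-16 itself averaged 43.3 ± 5.16 RPKM with hlh-30 RNAi, 51.0 ± 12.31 RPKM with atg-2 RNAi and 52.7 ± 12.7 RPKM with atg-18 RNAi, against 45.5 ± 4.56 RPKM with luc in glp-1 worms and 44.2 ± 3.94 RPKM in TU3401 (SD, n = 3 each). pqm-1, a zinc finger factor known to act in opposition to DAF-16 on many targets of the second class, averaged 59.2 ± 8.90 RPKM with hlh-30 RNAi, 60.9 ± 5.75 RPKM with atg-2 RNAi and 57.7 ± 12.2 RPKM with atg-18 RNAi, against 76.9 ± 18.02 RPKM with luc in glp-1 worms and 22.4 ± 4.71 RPKM in TU3401 (SD, n = 3 each). It rose in glp-1 luc against TU3401 luc (1.73, limma adjusted p = 9.1e-05), but was not called on the scale of neuronal and muscle genes (0.22). For both genes each RNAi range overlapped that of luc. No group changed daf-16 by design, so the link of the 10 genes to DAF-16 was not tested in these worms. Of 25 tested genes of the insulin pathway and DAF-16 regulation 8 rose and 14 fell in glp-1 luc against TU3401 luc (2 and 20 on the scale of neuronal and muscle genes). Of 20 genes of the p38 immune pathway and intestinal transcription factors 11 rose and 6 fell (1 and 13 on that scale). With RNAi against luc limma called 0 of either list.

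Among the 18 other dct and dod genes 10 were tested in glp-1 luc against TU3401 luc, of which 7 rose and 2 fell, with a median of 1.85. dod-6 rose to 1683 RPKM in glp-1 luc, against 121 RPKM in TU3401 luc (3.79), and dct-6, dod-23, dct-16, dct-11, dct-3 and dct-18 rose by 2.39, 2.05, 2.03, 1.92, 1.78 and 1.02. dct-13 and dod-18 fell by 3.17 and 2.39. On the scale of neuronal and muscle genes dct-18 turned to -0.52, and the count was 6 against 4. With RNAi against luc, limma called 0 of the 9 tested in each comparison, and their medians were -0.07 with hlh-30 RNAi, -0.17 with atg-2 RNAi and -0.09 with atg-18 RNAi. The level of dct-16, the most abundant at 8073 RPKM with hlh-30 RNAi, 8071 RPKM with atg-2 RNAi and 7974 RPKM with atg-18 RNAi, overlapped luc (8471 RPKM).

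Of 17 tested genes that DAF-16 is known to raise, 16 rose in glp-1 luc against TU3401 luc and 0 fell (median 2.26), among them the metallothionein mtl-1 (4.88) and the superoxide dismutase sod-3 (3.52); 11 rose and 1 fell on the scale of neuronal and muscle genes. With RNAi against luc 0 of them were called, and their medians were -0.03 with hlh-30 RNAi and 0.06 with either atg RNAi. In hlh-30 RNAi against atg-2 RNAi, 3 fell: hsp-12.3, a small heat shock gene, the alcohol dehydrogenase gene sodh-1 (10.7 RPKM against 26.3 RPKM, -1.22, limma adjusted p = 0.0387) and the saposin-like gene spp-1 (807 RPKM against 1242 RPKM, -0.62, limma adjusted p = 0.0207). sodh-1 passed in 0 and spp-1 in 1 of the 6 fits that left out 1 library, and neither passed on the scale of neuronal and muscle genes. Against atg-18 RNAi 1 fell, hsp-12.3 (39.6 RPKM with hlh-30 RNAi against 55.4 RPKM, -0.47, limma adjusted p = 0.0152), in 3 of 6 such fits and not on that scale. sod-3 read 89.01 RPKM with hlh-30 RNAi, 86.9 RPKM with atg-2 RNAi and 85.3 RPKM with atg-18 RNAi, against 91.8 RPKM with luc.

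Of the intestinal immune effectors, a list that shares the CUB-like family with the 10 genes, 17 of 19 tested rose in glp-1 luc against TU3401 luc and 0 fell. That count is on unscaled RPKM, where 41.4% of all genes rose. On the scale of neuronal and muscle genes its largest rises shrank, C32H11.4 from 3.67 to 2.14 and clec-85 from 2.88 to 1.33. With atg-2 RNAi 0 of 18 were called against luc, while 10 of the 18 were lower without overlap (median -0.20), where 8.28% of all genes were. With atg-18 RNAi 5 of the 18 were (median -0.11), where 6.21% of all genes were. Both comparisons share the luc libraries. With hlh-30 RNAi 0 of 19 were called, and 4 were higher and 2 lower without overlap, where 784 and 1029 of all 12494 genes were. In hlh-30 RNAi against atg-2 RNAi, irg-5 (F35E12.5 in the files) and the lectin gene clec-67 rose (8 rose and 1 fell with the library-number block). clec-67 read 226 RPKM with hlh-30 RNAi, against 153 RPKM with atg-2 RNAi (0.56, limma adjusted p = 0.0482), and passed in 1 of 6 fits that left out 1 library and not on the scale of neuronal and muscle genes.

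Genes with the most similar profile over the 12 glp-1 libraries were sought for the 3 genes with the widest range of group means, by the root mean square difference of log2(RPKM + 1) after centring each of 8562 genes. For dct-7 the nearest was dct-8 (0.50), then tts-1 (0.79) and nlp-28 (0.91). For dct-8 the nearest was tts-1 (0.47), a long noncoding RNA, then dct-7 (0.50) and nlp-28 (0.76). tts-1 averaged 403 RPKM with hlh-30 RNAi, 2505 RPKM with atg-2 RNAi and 2767 RPKM with atg-18 RNAi, against 2437 RPKM with luc. nlp-28, of the neuropeptide-like antimicrobial family, averaged 42.5 RPKM with hlh-30 RNAi, against 182 RPKM with luc, and unlike dct-8 was as high in TU3401 luc (162 RPKM). For dod-21 the nearest were B0024.4 (0.32), F55G11.4 (0.41) and tsp-1 (0.42), a tetraspanin gene. These likenesses describe 12 libraries of 1 strain, and carry no test.

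**Figure D4:**
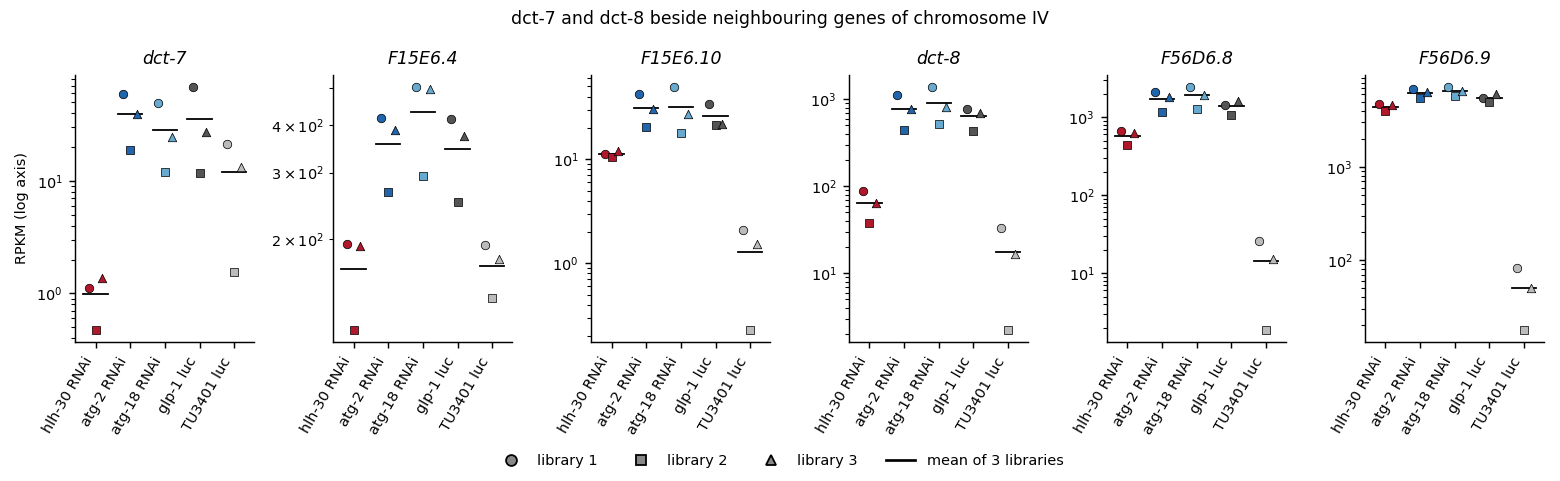
RPKM (log axis) in the 15 libraries of dct-7 with its neighbours F15E6.4 and F15E6.10 and of dct-8 with F56D6.8 and F56D6.9; symbols mark the library number, bars the mean, and groups are named by label. In each panel the 3 hlh-30 RNAi libraries lie below the 9 other glp-1 libraries, by least for F56D6.9 (3958 to 4731 RPKM against 5022 RPKM for the lowest of the others).

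After these values had been seen, the 3 nearest coding genes on either side of each of the 10 genes were examined, 51 genes of which 23 passed the filter. In glp-1 luc against TU3401 luc 19 rose and 3 fell, which became 8 and 6 on the scale of neuronal and muscle genes. With RNAi against luc limma called 0 of the 23 in each comparison. Beside dct-8, F56D6.8 read 654, 432 and 634 RPKM with hlh-30 RNAi, against 1418, 1062 and 1628 RPKM with luc (-1.26, limma adjusted p = 0.115). The groups did not overlap. It fell in hlh-30 RNAi against atg-2 RNAi (574 RPKM against 1682 RPKM, -1.53, limma adjusted p = 0.0300) and against atg-18 RNAi (1892 RPKM, -1.69, limma adjusted p = 0.0214), each in only 1 of 6 fits that left out 1 library. F56D6.9 was at 4425 RPKM with hlh-30 RNAi, 6218 RPKM with atg-2 RNAi and 6534 RPKM with atg-18 RNAi, against 5519 RPKM with luc; its fall against atg-18 RNAi passed (-0.56, limma adjusted p = 0.0438), likewise in 1 of 6 such fits.

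Beside dct-7, F15E6.4 averaged 167 RPKM with hlh-30 RNAi, against 347 RPKM with luc (-1.05, limma adjusted p = 0.277), and F15E6.10 averaged 11.2 RPKM with hlh-30 RNAi, against 25.8 RPKM with luc (-1.10, limma adjusted p = 0.110). Neither passed, though neither overlapped. F15E6.6 and F15E6.9, each farther from dct-7 in gene order, read 10.3 and 2.88 RPKM with hlh-30 RNAi and 9.597 and 3.13 RPKM with luc, so the neighbours of dct-7 did not all differ.

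Near dct-17 the CUB-like gene irg-5 (F35E12.5) rose to 518 RPKM in hlh-30 RNAi, against 266 RPKM in atg-2 RNAi (0.97, limma adjusted p = 0.00335) and against 313 RPKM in atg-18 RNAi (0.72, limma adjusted p = 0.0164). The contrast with atg-2 RNAi passed in 6 of 6 fits that left out 1 library, and that with atg-18 RNAi in 1 of 6. F35E12.9, also there, rose to 22.1 RPKM in hlh-30 RNAi, against 13.5 RPKM in atg-2 RNAi (0.67, limma adjusted p = 0.00645) and 12.7 RPKM in atg-18 RNAi (0.76, limma adjusted p = 0.00260), and passed in 6 of 6 such fits in both. F35E12.6, a neighbour of higher level, read 505 RPKM with hlh-30 RNAi, 416 RPKM with atg-2 RNAi and 456 RPKM with atg-18 RNAi, against 449.7 RPKM with luc. Beside dod-19, irg-8 (ZK6.11) read 818 RPKM with hlh-30 RNAi, against 437 RPKM with atg-2 RNAi (0.91, limma adjusted p = 0.0387, passing in 0 of 6 such fits). Of the neighbours' calls in these contrasts, those of irg-5 against atg-2 RNAi and of F35E12.9 against atg-18 RNAi were kept on the scale of neuronal and muscle genes, and the others were lost.

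**Figure D5:**
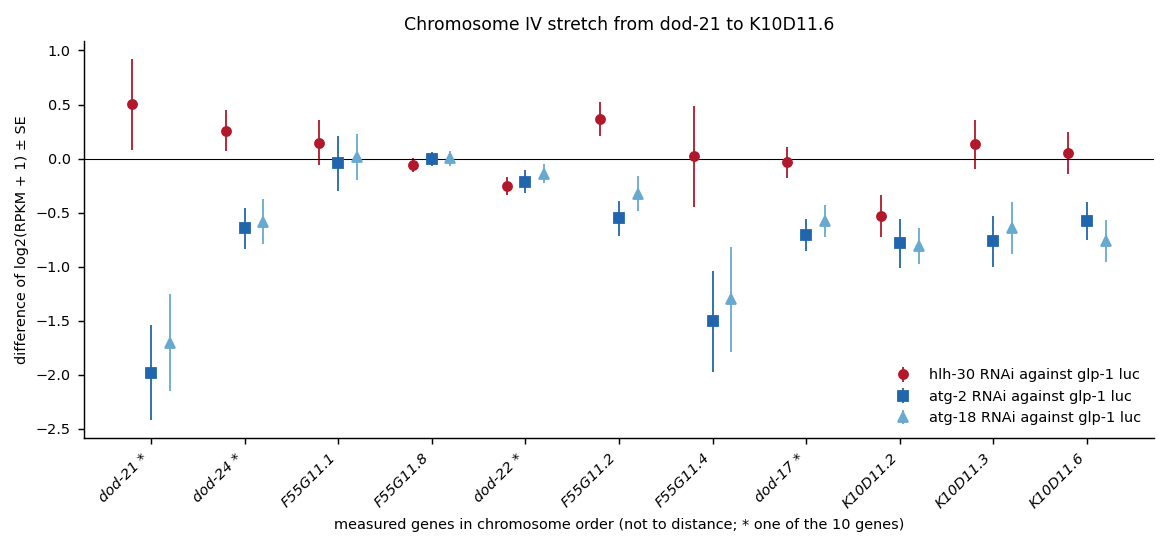
Differences of log2(RPKM + 1) from glp-1 luc with standard errors (3 libraries a group, groups named by label) for the measured genes of a stretch of chromosome IV, in chromosome order and not to distance, where an asterisk marks the 10 genes described. The atg-2 and atg-18 RNAi points lie under -0.3 for 8 of the 11 genes, while F55G11.1, F55G11.8 and dod-22 lie between -0.22 and 0.01.

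dod-21, dod-24, dod-22 and dod-17 lie in this order within 1 stretch of chromosome IV, together with 15 other coding genes taken up to K10D11.6 and on the far side of dod-21. Of these 15, 7 passed the filter in the RNAi comparisons. All 6 that passed it in glp-1 luc against TU3401 luc rose on unscaled RPKM (median 1.90), where limma called 41.4% of all genes higher. With atg-2 RNAi 5 of the 7 were lower than luc without overlap (F55G11.2, F55G11.4, K10D11.2, K10D11.3 and K10D11.6), where 8.28% of all genes were. With atg-18 RNAi 3 were, where 6.21% of all genes were, while limma called 0 of the 7 in both. F55G11.4 read 148, 111 and 117 RPKM with atg-2 RNAi and 189, 107 and 146 RPKM with atg-18 RNAi, against 799, 244 and 229 RPKM with luc. Like dod-21, it was highest in luc library 1. F55G11.8, between dod-24 and dod-22, read 68.3 ± 3.19 RPKM with atg-2 RNAi and 68.6 ± 2.15 RPKM with atg-18 RNAi, against 68.6 ± 4.29 RPKM with luc (SD, n = 3 each), so genes of the stretch were not all alike. F55G11.2 rose in hlh-30 RNAi against atg-2 RNAi (a difference of 0.92, limma adjusted p = 0.00952) in 5 of 6 fits that left out 1 library, and against atg-18 RNAi (0.70, limma adjusted p = 0.0358) in 0 of 6.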

How the data were processed

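The authors deposited 4 tables of 42048 genes with 1 normalized value per library, taken here as RPKM: no header names the unit, and the values are whole multiples of a step that depends on gene and library and sum to 976822 to 1057684 per library. The repeated luc columns held 0 differing values. The deposited log2 fold changes and p-values (false discovery rates), per the file headers, come from an unnamed test; a ranking column was not used. The submitters' processing notes name bcl2fastq, TopHat2 2.1.1 and the human build GRCh38; annotation and counting tool are unnamed, so no coordinates are printed.

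limma 3.58.1 (R 4.3.3) with a mean-variance trend was fitted to log2(RPKM + 1) over all genes with a mean of at least 1 RPKM, with Benjamini-Hochberg adjustment and a threshold of 0.05. Comparisons with luc and with TU3401 used the 6 libraries of the pair, and contrasts between RNAi groups all 12 glp-1 libraries. The steps were tested on simulated data. Where the values of a gene are whole multiples of a step, reads were recovered (relative tolerance 1e-05), up to a common factor per gene. Names matched the WBcel235 annotation for 40645 of 42048 genes. Tables and figures were made with matplotlib 3.10.9, numpy 2.4.6 and pandas 2.3.3 in Python 3.11.15.

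The 10 genes and the gene lists were chosen with earlier results of these data known. Genes outside the 10 were named as RNAi targets, as daf-16 and pqm-1, as other dct or dod genes that passed the test, as the 2 largest calls (or fewer) in each direction for a list in a comparison, by likeness, or as neighbours; the RNAi values of sod-3 and dct-16, hsp-12.3 in hlh-30 RNAi against atg-2 RNAi, and neighbours that were not called, are examples chosen after their values were seen. Library numbers pair the samples where each same-numbered pair of deviations correlated over 0.1 across genes: atg-2 RNAi with luc (0.402, 0.264 and 0.200), hlh-30 with atg-2 RNAi (0.504, 0.272 and 0.291), hlh-30 with atg-18 RNAi (0.208, 0.239 and 0.216), and atg-2 with atg-18 RNAi (0.151, 0.183 and 0.170).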

Additional observations from a re-analysis of the deposited data

How the results depend on the processing

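Counts of called genes over all genes moved most. In hlh-30 RNAi against luc (11 genes) no filter gave 2, limma without its trend 4, rescaling on neuronal and muscle genes 5, and leaving out 1 library 0 to 11: 0 without hlh-30 RNAi library 2 or 3 or luc library 3, and 3 without hlh-30 RNAi library 1. The trend-free fit called 1 gene each in atg-2 RNAi and in atg-18 RNAi against luc, in place of 0. In hlh-30 RNAi against atg-2 RNAi (126) the counts were 52, 70 and 21 under the same 3 settings and 30 to 86 with 1 library left out, and in hlh-30 RNAi against atg-18 RNAi (127) they were 59, 50 and 26, and 28 to 78. Between atg-2 and atg-18 RNAi (2) leaving out 1 library gave 0 to 2. In glp-1 luc against TU3401 luc (12175) leaving out 1 library gave 11782 to 12022.

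The library number as a block gave 757 genes in hlh-30 RNAi against atg-2 RNAi, 506 in hlh-30 RNAi against atg-18 RNAi, 1 between atg-2 and atg-18 RNAi, and 0 in atg-2 RNAi against luc. The contrasts between RNAi groups were fitted with the luc libraries included, whose numbers were not shown to pair with hlh-30 or atg-18 RNAi. Where numbers were not shown to pair the samples, the block gave 46 genes in hlh-30 RNAi against luc (correlations 0.358, 0.241 and 0.069; 2 of the 10 genes lower), 0 in atg-18 RNAi against luc (0.231, 0.214 and 0.0841) and 12255 in glp-1 luc against TU3401 luc (0.0707, 0.0722 and -0.0238; 10 of the 10 higher). The cause of these moves was not tested.

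On the scale of neuronal and muscle genes, dod-17 (-0.0598) and dct-18 (-0.52) turned direction in glp-1 luc against TU3401 luc, and genes shifted by a median of -0.10 in atg-18 RNAi against luc. For genes outside the 10, alternatives other than leaving out 1 library, added after seeing the data, kept 356 calls, lost 38 and turned 1; leaving out 1 library kept 279 and lost 63. At the smallest scale the RPKM steps allow, dct-7 rests on 2 to 6 reads per hlh-30 RNAi library, which limits its fold. Having 3 libraries a group limits all other values.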
